A study of Homo sapiens with 3 samples.

Results

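Spliceosomal small nuclear RNAs and 28S ribosomal RNA are structural RNAs that work inside ribonucleoprotein particles and carry no poly(A) tail in their mature form. Described here are RNU2-1, RNU11, RNU6ATAC and RNA28SN5, each with 1 probe, which makes 4 of 48798 probes and 4 of 18851 genes on the array. They were chosen by the symbol in the array annotation, with their signals on these arrays already known. The cells were H2373, an established human line of pleural mesothelioma, a cancer of the lining of the chest. Hoechst 33258 (H258) or Hoechst 33342 (H342) was added at 36 µM for 3 h, or no dye, and each condition had 1 array. How long the untreated cells were cultured is not given in the sources used here. Both dyes bind AT-rich stretches in the minor groove of DNA, and they differ at the terminal phenyl ring, which carries a hydroxyl group in H258 and an ethoxy group in H342.

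The RNAs stand at different steps of gene expression. U2 snRNA, encoded by RNU2-1, pairs with the branch site of nearly all introns as part of the major spliceosome. U11 and U6atac snRNAs, encoded by RNU11 and RNU6ATAC, belong to the minor spliceosome, which removes the rare U12-type introns. U11 pairs with the 5′ splice site of such an intron, and U6atac later takes its place and forms part of the catalytic center. U2 and U11 are made by RNA polymerase II from promoters of their own, U6atac by RNA polymerase III, and the 28S RNA of the large ribosomal subunit is cut from a long precursor made by RNA polymerase I.

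All of the 4 RNAs were higher after H342 than in untreated cells by at least 2-fold after background correction, and none of them reached 2-fold after H258. RNA28SN5 was 4.93-fold higher after H342, RNU6ATAC 3.12-fold, RNU2-1 2.64-fold and RNU11 2.20-fold. Of these, RNA28SN5 and RNU6ATAC alone kept 2-fold after H342 when no background was subtracted. There were no replicates, so no error and no p-value between conditions can be given, and each value is a description of these 3 arrays.

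Several facts bound what a signal of these probes means. The RNA was amplified with a kit that copies from an oligo(dT) primer, so the amount of an RNA without a tail and the share of it that was copied cannot be told apart. Nor, in bulk RNA, can fewer cells be told apart from less RNA per cell. Copies of these genes are many in the genome: RefSeq lists 69 pseudogene symbols of the U2 family, 41 of the U6atac family, 5 of the U11 family and 5 symbols for 28S RNA, and the probes may not separate them. RNU2-1 lies on chromosome 17, RNU11 on chromosome 1 and RNU6ATAC on chromosome 9, while RefSeq gives the RNA28SN5 copy no assigned chromosome. RNU11 overlaps the long noncoding gene TAF12-DT, RNU6ATAC overlaps the uncharacterized gene LOC124902297, and RNU2-1 overlaps no other gene of that table. The strand of the probes is not given in the sources used here, so RNA of an overlapping gene cannot be told apart from the snRNA.

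On the untreated array 16169 probes were detected at a p under 0.05 against the negative control beads, on the H258 array 15115 and on the H342 array 15248. The median signals lay between 130.0 and 133, and the lowest detected signals between 156 and 160.0. Of 14 mesothelial markers 8 were detected on all arrays, among them MSLN, WT1 and CALB2, and 4 on none (UPK3B, UPK1B, KRT5 and PDPN). Of markers of other cells, 2 of 4 for leukocytes (CD14 and CD68), 1 of 3 for endothelium (PECAM1) and 2 of 4 for fibroblasts (COL1A1 and COL1A2) were detected on all arrays, and of 5 for lung epithelium only EPCAM was detected, on 1 array. Markers of other cells detected on none included PTPRC, CD3E, VWF, CDH5, SFTPC, DCN, LUM and HBB. The summed signal of the mesothelial markers was 85540 in untreated cells, 86839 after H258 and 87863 after H342, most of it from VIM and CDH2. Single markers moved within it: MSLN had 1533, 2063 and 2575 in the same order, and CALB2 had 282, 270.0 and 235.

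**Figure D1:**
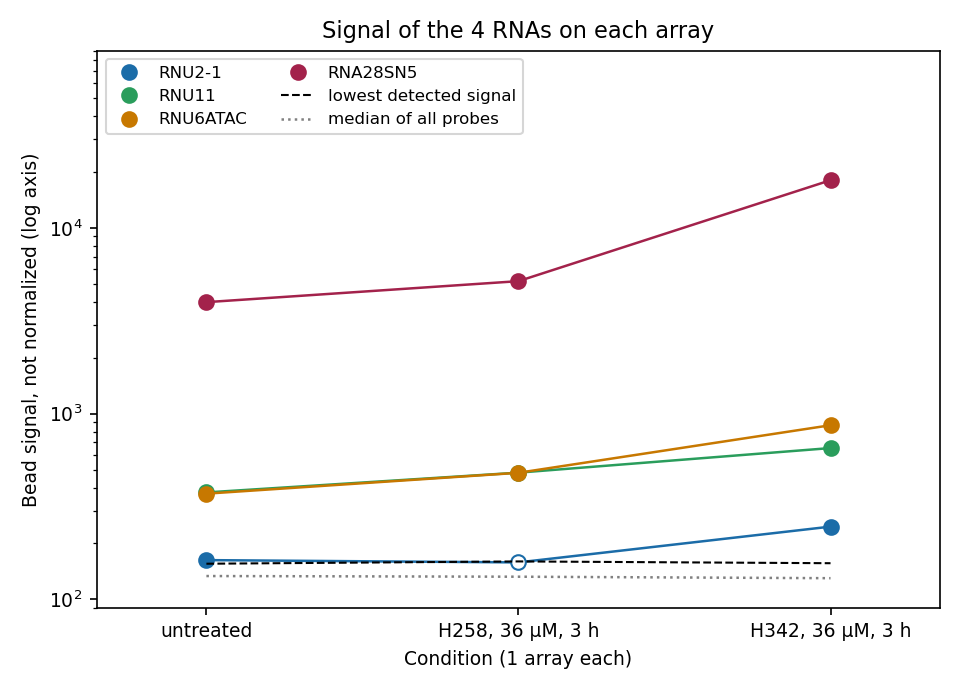
Bead signal without normalization (y, log axis) of the probes of RNU2-1, RNU11, RNU6ATAC and RNA28SN5 on the untreated, H258 and H342 arrays (x, 1 array each), where filled points are detected and the open point is not, with the lowest detected signal of each array dashed and the median of all probes dotted. Every RNA has its highest signal after H342, from 246 for RNU2-1 to 18071 for RNA28SN5, and RNU2-1 lies at the detection limit on the other arrays.

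RNA28SN5 gave the clearest difference. Its signal was 3985 in untreated cells, 5170 after H258 and 18071 after H342, with a detection p of 0 on each array. The H342 array stood far above the other two, which lay close to each other. The signal exceeded that of 96.4% of all probes in untreated cells, 97.2% after H258 and 99.3% after H342. After background correction and quantile normalization the log2 difference from untreated cells was 2.30 after H342 and 0.36 after H258. This placed the probe at rank 8 from the top of 17022 probes tested after H342. The signal of this probe lies well above background, and its log2 difference after H342 stayed between 2.21 and 2.36 over 6 other ways of processing the values. The probe held 0.0103% of the summed signal of the untreated array, 0.0132% after H258 and 0.049% after H342. Its signal is that of a probe and not a measure of how much 28S RNA the cells hold.

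RNU6ATAC, the minor spliceosome RNA made by RNA polymerase III, had a signal of 371 in untreated cells, 480.3 after H258 and 866 after H342, detected on each array at a p of 0. The order of the conditions was the same as for RNA28SN5. The log2 difference was 1.64 after H342, rank 21 of the probes tested, and 0.57 after H258. Without background correction these values were 1.31 and 0.42, and they were 1.24 and 0.41 in the deposited value table, so that 2-fold was kept after H342 each time.

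RNU11, for the minor spliceosome RNA that first recognizes the 5′ splice site, was well detected too. Its signal was 376 in untreated cells, 481 after H258 and 653 after H342, at a detection p of 0 on each. Relative to untreated cells, the H258 array stood about as high as for RNU6ATAC, and the H342 array less high. The log2 difference was 1.14 after H342 and 0.54 after H258. Without background correction the first fell short of 2-fold at 0.88, and in the deposited value table at 0.84.

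RNU2-1 was near the limit of detection. Its signal was 163 in untreated cells, with a detection p of 0.0303, 158 after H258, where it was not detected at a p of 0.0514, and 246 after H342, with a p of 0.00922. The untreated signal lay just above the lowest detected signal of its array, 156, and only the H342 array stood clear of that limit. The log2 difference was 1.40 after H342 and -0.04 after H258. The first was just over 2-fold with a larger offset, and it was 0.66 without background correction and 0.72 in the deposited value table, so that its size rests on the correction. U2 is among the most abundant snRNAs of a cell, and this low signal is that of a probe and not a measure of how much U2 the cells hold.

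Read against all probes, 0 of the 4 RNAs were higher by at least 2-fold after H258, where 118 of 16900 tested probes, 0.698%, were. After H342 it was 4 of the 4, beside 218 of 17022 probes, 1.28%. Lower by at least 2-fold were 0 of the 4 RNAs, 3.07% of probes after H258 and 3.16% after H342. Without background correction the shares of probes higher by at least 2-fold were 0.0237% after H258 and 0.182% after H342. They were 0.0178% and 0.17% in the deposited value table, beside 0 and 2 of the 4 RNAs in each. The RNAs were chosen with these differences known, so the counts describe the choice and support nothing. For scale, the robust SD of the log2 differences over all tested probes was 0.434 after H258 and 0.399 after H342. After H258, RNU11 and RNU6ATAC lay beyond this SD by little, and RNA28SN5 and RNU2-1 lay within it. After H342 each of the 4 was more than 2 of these SDs from 0. This SD is the spread over different probes and not the error of a probe, and these distances too describe the choice. The untreated array is shared by both comparisons.

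**Figure D2:**
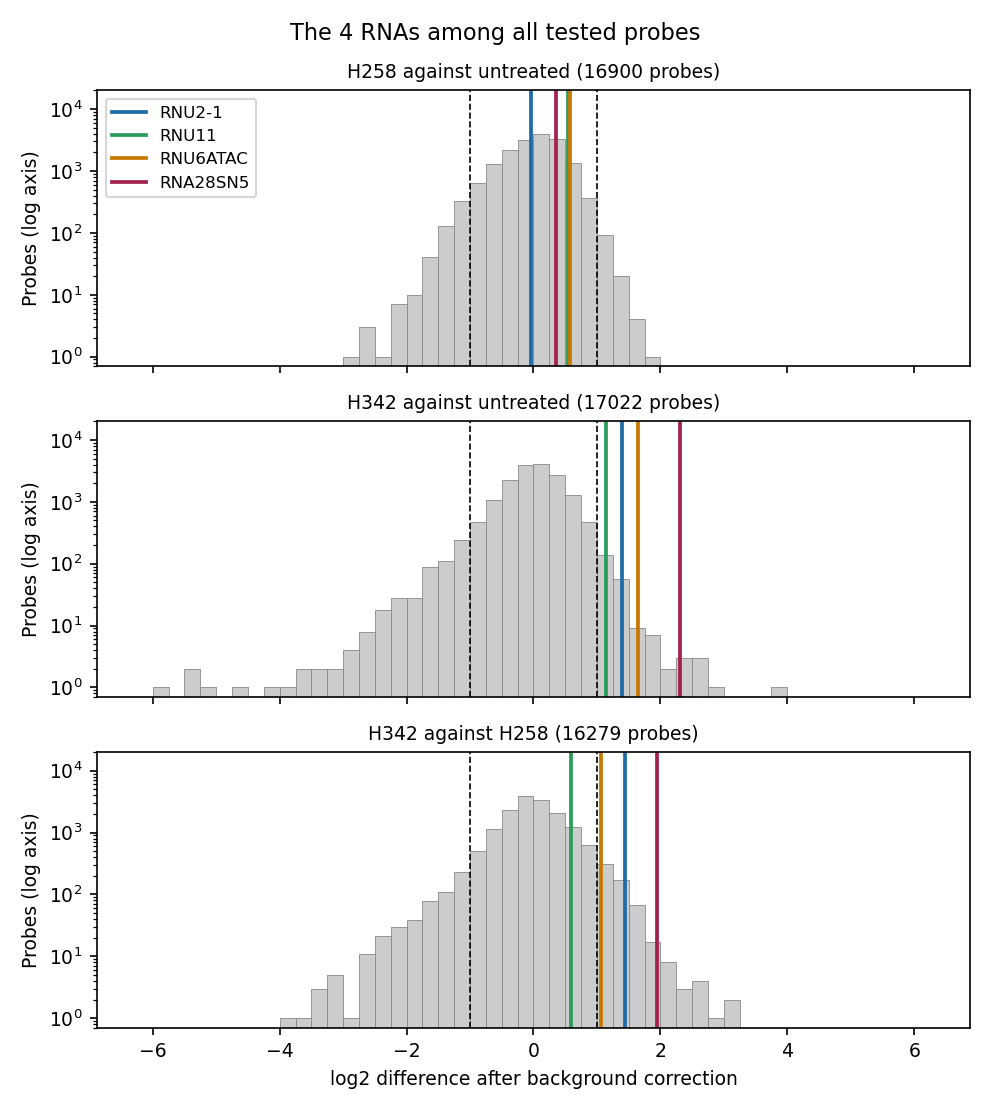
Numbers of tested probes (y, log axis) by log2 difference (x, after background correction) in the 3 comparisons, with colored lines at the differences of the 4 RNAs and dashed lines at 2-fold. After H258 the 4 lines stand inside the bulk of the probes, between -0.04 and 0.57, and after H342 in the upper tail, between 1.14 and 2.30.

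The dyes were given at the same dose for the same time, and their arrays were compared directly. How much of each dye entered the cells was not measured on these arrays. The paper reports cell death of H2373 cells under H342 but not under H258, with viability measured after longer treatment than on these arrays. It proposes that the dyes enter cells differently. Structure of the dye, its uptake and cell death cannot be told apart here. RNA28SN5 was 3.85-fold higher after H342 than after H258, and RNU6ATAC 2.10-fold. RNU2-1 was 2.63-fold higher after background correction, with its H258 side set to the lowest detected signal of that array. The ratio of its uncorrected signals was only 1.56. RNU11 was 1.51-fold higher and was not called. In this comparison 3 of the 4 RNAs were called, beside 585 of 16279 probes, 3.59%, that were higher by at least 2-fold. RNU2-1 entered it only through its detection after H342. Without background correction only RNA28SN5 kept 2-fold, with a log2 difference of 1.92, and RNU6ATAC had 0.89. The shares of probes then called higher were 1.1%, and 0.915% in the deposited value table, where the same count of RNAs was called. H342, with the ethoxy group, had the higher signal for each of the 4 RNAs, and with 1 array per compound no interval can be set around these differences.

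**Figure D3:**
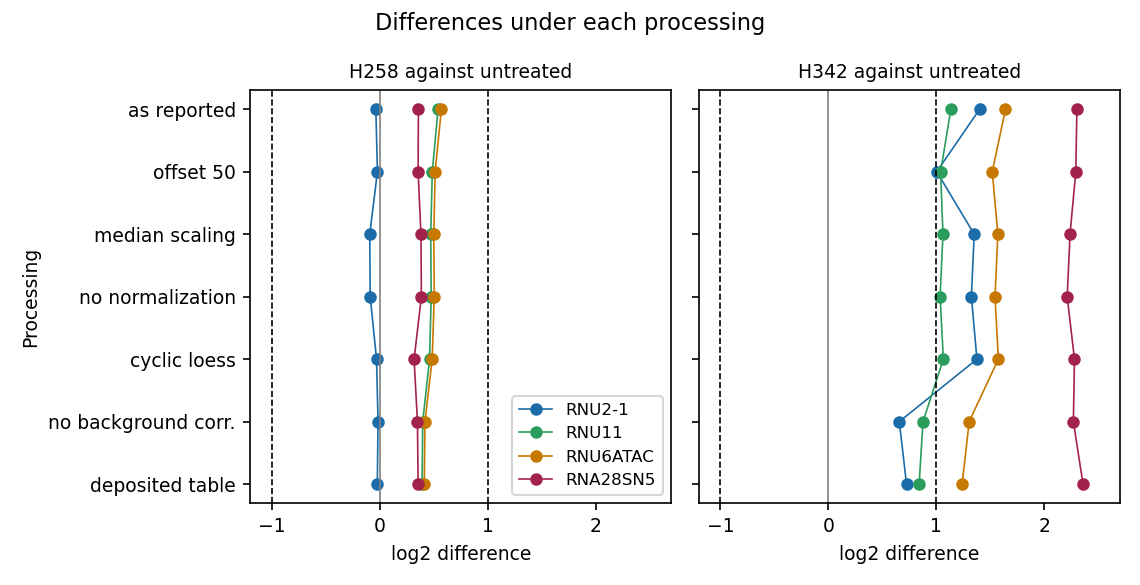
Log2 difference (x) of the 4 RNAs from untreated cells after H258 (left) and H342 (right), for the processing reported and 6 others (y), with dashed lines at 2-fold. RNA28SN5 after H342 stays between 2.21 and 2.36, whereas RNU2-1 moves from 1.40 to 0.66 when no background is subtracted.

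Protein-coding genes next to the snRNA genes were read on the same arrays. The overlapping genes TAF12-DT and LOC124902297 had no probe with their symbol alone and were not read. After H342 the highest log2 difference from untreated cells among the detected probes of the genes read was 0.12. TAF12, near RNU11, had a log2 difference of 0.10 after H342. GMEB1, also near RNU11, had -0.45 and -0.52 by its 2 probes, and RAB42, close to the detection limit, had -0.02. BRD3, near RNU6ATAC, had 0.12, and the brightest probe of WDR5, also near it, had -0.07. The detected probe of NBR1, near RNU2-1, had -0.06. The separation was smaller elsewhere: after H258 a GMEB1 probe had 0.40 beside 0.54 for RNU11, and a WDR5 probe had 0.43 beside 0.57 for RNU6ATAC. Between the dyes RAB42, not detected after H258, and RNU11 both had 0.60.

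Among other RNAs that mostly lack a poly(A) tail, only RN7SK, RN7SL1 and RPPH1 of 37 listed had a probe, and they did not move as one. RN7SK, which keeps the elongation kinase P-TEFb in an inactive particle, was higher after H342 by both of its probes. The brighter probe had a signal of 616 in untreated cells, 737 after H258 and 3167 after H342, a log2 difference of 2.72 after H342 and 0.36 after H258. The other RN7SK probe had 3.75 and 0.67. RN7SL1, the RNA of the signal recognition particle, had 39289, 30718 and 35193 in the same order and a log2 difference of -0.09 after H342. RPPH1, the RNA of RNase P, was near background at 204, 254 and 228, with 0.46 after H342 and 0.70 after H258. All of these are made by RNA polymerase III, as is U6atac.

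Likeness was the Euclidean distance of the pair of log2 differences from untreated cells, among 9214 genes detected on all 3 arrays. The gene most like RNA28SN5 was RN7SK by its brighter probe, at 0.42. HES1, a Notch target, followed at 0.53 and the small nucleolar RNA SNORD46 at 0.57. The other RN7SK probe, with 3.75 after H342 and 0.67 after H258, lay farther from RNA28SN5 than these. Nearest to RNU6ATAC were PIM3, a kinase gene, at 0.12, GADD45G, an activator of stress kinases, at 0.14 and the small nucleolar RNA SNORD43 at 0.18. Nearest to RNU11 were ZNF205 at 0.022 and C14orf93 at 0.037, and nearest to RNU2-1 were C11orf96 at 0.21, TAF15 at 0.22 and PIM1 at 0.23. The rest of the 5 nearest were ZNF296 and JMJD7-PLA2G4B for RNA28SN5, TMEM91 and JMJD7-PLA2G4B for RNU6ATAC, MKS1, PGGHG and IFFO1 for RNU11, and ZC3H12A and LRRC58 for RNU2-1. Some of these genes were dim: in untreated cells PIM3 had a signal of 169, SNORD43 168 and HES1 193. Without background correction their log2 differences after H342 were 0.76, 0.71 and 1.09, beside 1.31 for RNU6ATAC and 2.27 for RNA28SN5. The brighter RN7SK probe then had 2.48, and TAF15 had 1.32. The distances thus rest in part on the correction. A distance over 3 arrays is a weak measure of likeness, and many genes lie near any point in the bulk of the values.

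Genes for the proteins that make and use these RNAs differed in both directions, but after H342 their calls were all lower. Over 12 lists of such genes and of messages relevant to them, and the noncoding list, 243 genes were tested after H258, with 2 called higher and 4 called lower, and 244 after H342, with 2 called higher and 12 called lower. Those called higher were ARMC7 and the histone gene H2BC15 after H258, and RN7SK and H2BC15 after H342. Of all genes tested, 0.768% were higher and 3.35% lower after H258, and 1.25% were higher and 3.61% lower after H342. The median log2 difference of the list genes was -0.003 after H258 and -0.12 after H342, beside 0.06 and 0.03 over all genes. Values given below for listed genes are log2 differences from untreated cells unless named as signals or folds.

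**Figure D4:**
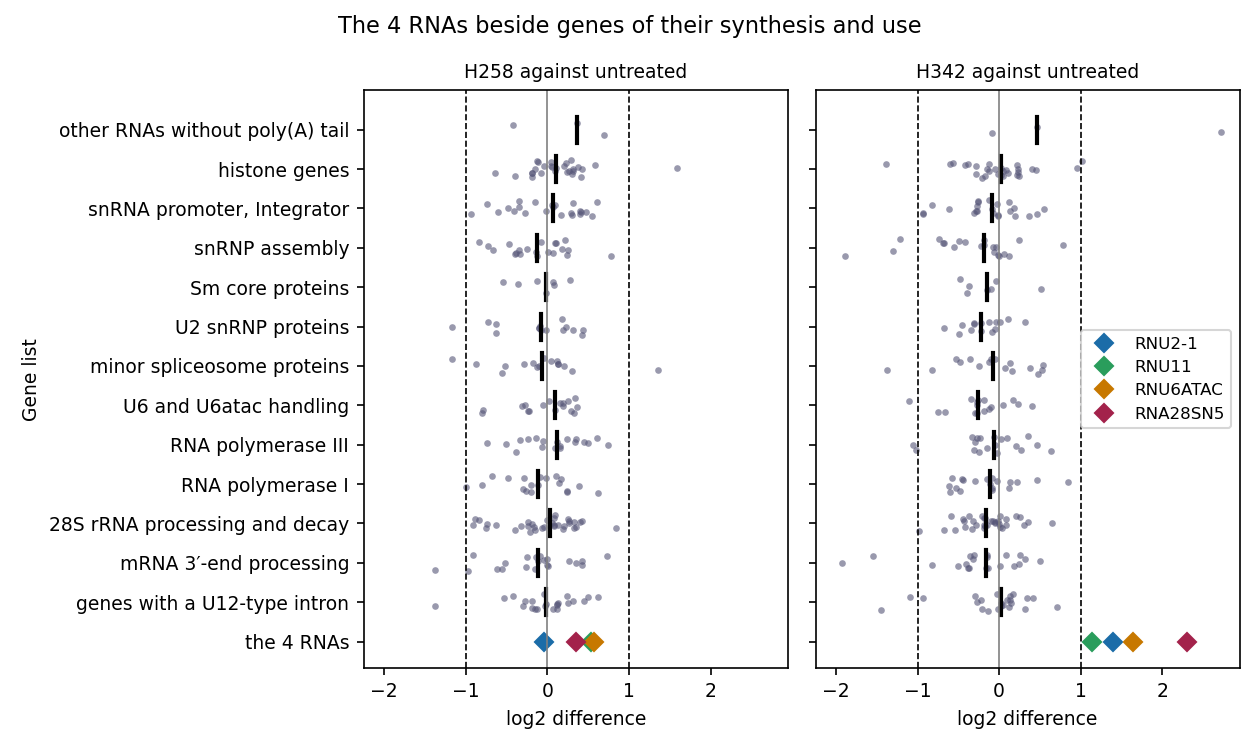
Log2 difference from untreated cells (x) after H258 (left) and H342 (right) of each tested gene of the 13 lists (y, gray points, with the median of each list as a black bar) and of the 4 RNAs (diamonds), with dashed lines at 2-fold. After H342 the diamonds lie at 1.14 to 2.30, and the medians of the lists at -0.26 to 0.46.

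Transcription of snRNA genes needs the SNAPc complex, the activators POU2F1 and ZNF143 and, for the ends of the polymerase II transcripts, the Integrator complex. None of 23 tested genes of this list reached 2-fold under either dye, although 1 did with cyclic loess under each, and after H342 1 with median scaling and 2 with no normalization between arrays. The medians were 0.07 after H258, which turned to -0.01 with cyclic loess, and -0.09 after H342. The Integrator subunit gene INTS6 had a signal of 1359 in untreated cells, 744 after H258 and 722 after H342, log2 differences of -0.94 and -0.93. ZNF143 had -0.83 after H342 and -0.41 after H258. Of other Integrator genes, INTS7 had 0.07 after H258 and -0.93 after H342, and INTS2 had -0.75 and -0.02. ICE1, of the elongation complex at snRNA genes, had -0.61 and -0.31.

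Of 21 tested genes of snRNP assembly, capping and transport, 3 were called lower after H342 and none after H258. COIL, which encodes coilin, the scaffold of Cajal bodies where snRNPs mature, had a signal of 1214 in untreated cells, 948 after H258 and 390.0 after H342, log2 differences of -0.34 and -1.89. GEMIN4, a subunit of the SMN complex that loads Sm rings onto snRNAs, had 4704, 5680 and 1855, a log2 difference of -1.30 after H342. TGS1, the enzyme that trimethylates the snRNA cap, had 352, 285 and 206, a difference of -1.21. COIL and GEMIN4 kept 2-fold without background correction, at -1.57 and -1.25, and TGS1 did not, at -0.70. The export adaptor PHAX had -0.83 after H258 and -0.49 after H342, and the import adaptor SNUPN 0.79 under both. DDX20, a helicase of the SMN complex, was detected only in untreated cells, at a signal of 195.

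Sm core proteins form the ring that all of the snRNAs here except U6atac carry. None of 7 tested Sm genes reached 2-fold, with medians of -0.02 and -0.15. SNRPN had 0.28 after H258 and 0.52 after H342, SNRPD1 had -0.54 and -0.39, and SNRPG had -0.36 and -0.48. Of 15 tested U2 snRNP genes only DDX46, an RNA helicase that acts on U2 at the branch site, was called, at -1.17 after H258, and the median after H342 was -0.22. SF3B1, the branch site protein, had -0.72 after H258 and -0.04 after H342. SNRPB2, a protein of the U2 particle, had -0.63 and -0.45, PHF5A, a partner of SF3B1, had -0.10 and -0.67, and U2AF1, which binds the end of the intron, had 0.44 and -0.49.

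Of 16 tested genes of the minor spliceosome, 1 was higher and 1 lower after H258 and 1 lower after H342. SNRNP48, a protein of the U11/U12 particle, had signals of 228 untreated and 249.7 after H342 and was at least 2.07-fold lower after H258, where it was not detected. ARMC7 and RBM48, known as a pair that acts with the minor spliceosome, went apart. ARMC7 had signals of 219, 369.8 and 163 in the same order, log2 differences of 1.35 and -0.83, and RBM48 had -0.29 after H258 and was at least 2.29-fold lower after H342, where it was not detected. None of these calls held without background correction, at -0.52 for SNRNP48, 0.81 for ARMC7 and -0.63 for RBM48, and that of RBM48 was also lost with the mean of its detected probes. ZCRB1 had -0.87 after H258 and 0.16 after H342, and CENATAC had 0.13 and 0.53. Of 23 tested genes known to hold a U12-type intron, SMC3 was lower after H258, at -1.38, and the cell cycle transcription factors E2F3 and E2F6 were lower after H342, at -1.09 and -1.45. The deposited value table gave -0.99 for E2F3, which was then no longer called, and SMC3 was not called with the mean of its detected probes. MAPK8 had -0.54 after H258 and -0.21 after H342, and VPS16 had 0.62 and 0.71. The positions of these probes were not known here, so spliced and unspliced messages cannot be told apart.

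U6-type RNAs are bound by the LSm ring and made from promoters that use BRF2 in place of BRF1. Of 17 tested genes of U6 and U6atac handling, LSM6 was lower after H342, at -1.10, with a median of -0.26 over the list. SSB, the La protein, which binds the ends of new polymerase III transcripts, had -0.80 after H258 and 0.40 after H342, and LSM8, of the nuclear LSm ring, had -0.79 and -0.26. SART3, which recycles U6 and U6atac, had 0.28 and -0.66, PRPF4 had 0.02 and -0.75, and RBM22 had 0.36 and -0.28. BRF2 had a signal of 1002 in untreated cells, 1328 after H258 and 517 after H342, log2 differences of 0.50 and -1.02. GTF3C4, a subunit of the polymerase III factor TFIIIC, had -0.34 and -1.06. These 2 were the only ones called among 19 tested polymerase III genes, and GTF3C4 was not called with the mean of its detected probes. The subunit genes POLR3D and POLR3G had 0.61 and -0.75 after H258 and 0.36 and -0.25 after H342. LSM6 at -0.64, BRF2 at -0.86 and GTF3C4 at -0.77 fell short of 2-fold without background correction.

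None of 19 tested genes of RNA polymerase I and its factors was called under either dye, although 1 was after H258 with median scaling, cyclic loess or no normalization, with medians of -0.11 under both. The subunit gene POLR1F was 1.99-fold lower after H258, and TAF1C, for an initiation factor, had a log2 difference of 0.85 after H342. TAF1B had -0.68 after H258 and -0.09 after H342, DDX21 -0.80 and -0.46, POLR1B -0.21 and -0.61, and the termination factor TTF1 -0.30 and -0.60. None of 34 tested genes for processing and decay of 28S and other structured RNAs was called either, although 1 was after H342 with median scaling, cyclic loess or no normalization. Among these MTREX, the helicase that feeds the nuclear exosome, had -0.91 after H258 and -0.15 after H342. ZCCHC8, its partner in the targeting complex for nuclear RNAs, had -0.62 and -0.98. TENT4A, a noncanonical poly(A) polymerase, had 0.08 and -0.68, and its paralog TENT4B had -0.84 and 0.30. NOP58, a core protein of box C/D particles, had -0.89 and -0.18, and NOL9, a kinase of ribosomal RNA processing, had 0.40 and 0.65.

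Factors that form the 3′ ends of messages were lower where they were called. Of 21 tested genes, 1 was lower after H258, or 2 with median scaling, cyclic loess or no normalization, and 2 after H342. CLP1, a kinase in cleavage factor II, had a signal of 720 in untreated cells, 898 after H258 and 259 after H342, log2 differences of 0.43 and -1.92. PCF11, of the same factor, had 556, 273 and 250.0, and was lower under both dyes at -1.38 and -1.55. Without background correction CLP1 kept 2-fold after H342, at -1.40, as did PCF11 at -1.07, whereas PCF11 after H258 fell short at -0.97. PAPOLA, the main poly(A) polymerase, had -0.91 after H258 and -0.15 after H342, NUDT21, of cleavage factor I, had -0.97 and -0.14, and CSTF1, of the cleavage stimulation factor, had -0.26 and -0.83.

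Replication-dependent histone messages end in a stem-loop and mostly lack a tail, as the 4 RNAs do. Of 28 tested after H258 and 29 after H342, H2BC15 was called higher under both dyes and H4C3 lower after H342, counts to be read beside the shares of all genes above. H2BC15 was not detected in untreated cells, had a signal of 255 after H258 and 205 after H342, and was at least 2.99-fold higher after H258 and at least 2-fold after H342. Neither call held without background correction, and the H342 call was also lost with an offset of 50, median scaling or no normalization. H4C3 was bright, at 48638 in untreated cells, 44373 after H258 and 17792 after H342, a log2 difference of -1.39. The medians of the histone list were 0.10 and 0.02, the last of which turned to -0.05 with median scaling. H4C8 had 0.05 after H258 and 0.96 after H342, H3C7 had 0.58 and 0.22, and H3C10 had -0.64 and -0.12.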

How the data were processed

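H2373 cells were profiled on an Illumina HumanHT-12 BeadChip, with 1 array for each of untreated cells, H258 and H342. The deposited intensity of each of 48798 probes was the mean bead signal with no background subtracted, and the deposited detection p-value set it against that array's negative control beads, both made by the authors with BeadStudio 3.1.3.0 per the labels. A second deposited table of intensities, already normalized between arrays in a way the sources used here do not give, served as an alternative. The sources differ on the version of the array, and no genome build is given in them. No column of the authors' own comparisons was used.

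Signals were background corrected with the normexp model from the detection p-values (offset 16), quantile normalized and log2 transformed with limma 3.58.1 in R 4.3.3. The computation was tested on simulated data, with differences set only in the brighter probes. Probes as dim as that of RNU2-1, and differences as small as those of RNU2-1 and RNU11, were not covered. Probes with a detection p under 0.05 on either array of a comparison were tested, and 2-fold was the threshold for a call. The brightest probe stood for a gene, among 28093 probes with 1 symbol, 13 with several and 20692 with none. For an undetected array, its lowest detected signal replaced the probe's own and gave the bound written as at least. This bound holds for the background-corrected values only, and uncorrected values can be smaller. With 1 array per condition no test was run. Where a gene list is described, the genes named are those called and the 3 with the largest difference under each dye. Of 328 listed genes, 275 had a probe. Likeness to an RNA was the Euclidean distance of the pair of log2 differences, and the 5 nearest genes were taken.

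Alternatives were the deposited value table, signals without background correction, a larger offset (50), cyclic loess, median scaling, unnormalized arrays, other detection filters, thresholds of 1.5-fold and 3-fold, and averaging the detected probes of a gene. The 4 RNAs and the lists were chosen with earlier results of these data known. Gene names, chromosomes and neighbors came from RefSeq, and no sequence of the 4 RNAs was used here. The precision is limited by the number of arrays.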

Additional observations from a re-analysis of the deposited data

Results flagged for a closer look

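RNU2-1 was the only one of the 4 RNAs whose differences from untreated cells lay on opposite sides of 0 under the 2 dyes, with a log2 difference of 1.40 after H342 and -0.04 after H258. The difference between these was not tested, since each dye has 1 array. The probe was not detected after H258, and with that side set to the lowest detected signal of its array the second value was 0.01.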

How the results depend on the processing

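No paired analysis was possible because each condition has 1 array, and for the same reason no array could be left out. None of the 4 RNAs was called after H258 in any setting, including 1.5-fold. After H342 the 4 calls became 2 without background correction, 2 in the deposited value table and 2 at 3-fold. Between the dyes the 3 calls became 1 in each of these settings. All other settings kept these counts within 1.5 times. None of the 12 log2 differences of the 4 RNAs changed sign under the 6 other ways of computing the values. Over all settings 128 of 141 differences kept their side of the threshold. Not all of these were new values, since the detection filters and fold thresholds left the difference itself as it was. Under a detection filter the side was therefore fixed in advance. For the gene lists after H258, 6 calls became 2 without background correction, 2 in the deposited table, 41 at 1.5-fold and 1 at 3-fold. Over all genes, 81 higher and 353 lower became 3 and 109 without background correction, and 3 and 85 in the deposited table. For the lists after H342, 14 became 8 with an offset of 50, 8 without background correction and 7 in the deposited table. They became 38 at 1.5-fold and 3 at 3-fold. Over all genes, 132 higher and 382 lower became 54 and 238 with that offset. They became 26 and 146 without background correction, and 23 and 140 in the deposited table. Between the dyes, 17 list calls became 10 without background correction, 9 in the deposited table, 51 at 1.5-fold and 3 at 3-fold. Over all genes, 385 higher and 380 lower became 136 and 157 without background correction, and 110 and 152 in the deposited table. Counts over all genes are not given here at 1.5-fold and 3-fold, so the list counts there are no result about the lists. Signals near background, such as those of RNU2-1, gave differences whose size changed with the background correction.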

Other observations

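Small nucleolar RNAs, which guide modification and cleavage of ribosomal and spliceosomal RNAs, were grouped by the RefSeq type of their gene after the values were seen. Of 38 tested snoRNA probes, 0 were called higher and 2 lower after H258, and 3 were higher and 12 lower after H342, with medians of -0.06 and -0.59. Among all tested probes 0.698% were higher and 3.07% lower after H258, and 1.28% were higher and 3.16% lower after H342. Without background correction 0 snoRNA probes were called after H258, and 2 were higher and 5 lower after H342. SNORD13, which acts in 18S RNA maturation, had a signal of 1429 in untreated cells, 1681 after H258 and 3536 after H342, and was 1 of the 3 called higher. SNORA25 and SNORA32 were the 2 called lower after H258 and were among those lower after H342. SNORA25 had 784, 397 and 192 in the same order, log2 differences of -1.17 and -2.94, and SNORA32 had 267 and 175 and was not detected after H342. SNORA33 had 709, 794 and 231, a difference of -2.20, and SNORA62 had 645, 739 and 238, a difference of -1.96. Many snoRNAs lie within introns of host genes, and their probes may read host transcripts. SNAR-A1, a small cytoplasmic RNA made by RNA polymerase III, had 4276, 6827 and 2112, log2 differences of 0.67 after H258 and -0.97 after H342.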
